A study of Mus musculus and Rattus norvegicus with 21 samples.

Results

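Chromatin immunoprecipitation followed by sequencing (ChIP-Seq) of mouse thyroid glands was examined at 10 genes of the Polycomb, histone demethylase and Tet families, of 21000 protein-coding genes with a curated RefSeq transcript. The genes were Ezh1, Ezh2, Eed, Suz12, Jarid2, Cbx2, Cbx7, Bcor, Kdm6b and Tet3. They were named with earlier results of these data known. In particular, Bcor and Tet3 were chosen by their PAX8 peaks, since each had 6 PAX8 peaks within 5 kb of a transcription start site (TSS), and those counts are therefore given as a description only. The H3K4me3 and H3K27me3 libraries came from Glis3-deficient (Glis3KO, here KO) and wild-type (WT) C57BL/6 mice labelled as 1 month old. Each genotype was fed a low iodine diet (LID) or the NIH-31 normal diet (ND). The KO allele is labelled B6.Glis3<tm2(mCherry)Amj>. The PAX8 and NKX2.1 libraries are labelled as thyroid of WT C57BL/6 mice of 1 month on the LID, whereas the methods of the study describe older mice that carried a GLIS3-EGFP fusion for its factor ChIP-Seq, so factor peaks and histone regions may come from different mice. The sex of the animals and the number pooled for a library are not given in the sources used here. There was 1 library for each antibody, genotype and diet, so the spread between replicates is unknown and no difference below was tested.

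Polycomb repressive complex PRC2 methylates lysine 27 of histone H3 through EZH1 or EZH2, in a core with EED, which binds the finished mark, and SUZ12, the scaffold. H3K27me3 is read by chromodomain proteins such as CBX2 and CBX7 of canonical PRC1 and is found at silenced developmental genes, while H3K4me3 lies at promoters in use. KDM6B removes H3K27 methylation, and TET3 oxidises methylated cytosine in DNA. PAX8 and NKX2.1 are the transcription factors that, with others, establish and keep the identity of thyroid follicular cells.

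The deposited lists held 51586 PAX8 and 46636 NKX2.1 peaks of 300 bp. They held 15692 to 17044 H3K4me3 regions in the 4 libraries. H3K27me3 lists were far more unequal, with 4116 regions in KO ND, 3050 in WT ND, 18040 in KO LID and 2631 in WT LID, covering 13.26, 7.47, 55.11 and 7.5 Mb. The KO LID list thus stands apart, and each H3K27me3 result is given with that in view. The lists carry no score and no read number, so the depth behind them is unknown and the thresholds they were made with could not be checked. Of 10 follicular cell genes fixed as markers, 10, 9, 10 and 8 had H3K4me3 within 1 kb of a TSS in KO ND, WT ND, KO LID and WT LID. None of the 11 immune, adipocyte and skeletal muscle genes had it in any library, whereas 2, 3, 4 and 5 of 5 endothelial and 2, 2, 1 and 3 of 5 fibroblast genes did. It was also present at 3, 3, 2 and 4 of 6 C cell genes and at 1, 0, 1 and 1 of 3 parathyroid genes. Thyroid glands were taken as bulk tissue, so a change within cells and a change in the share of cells cannot be told apart. Glis3 itself kept H3K4me3 at 1311 to 1548 bases of the window in all 4 libraries, which does not check the genotype because the label does not say which part of the gene the allele removes. On the Y chromosome, looked at after values had been seen, Ddx3y had 882 and 501 and Uty 1009 and 501 bases of H3K4me3 around a TSS in KO ND and KO LID, against 0 in WT ND and WT LID. Eif2s3y and Kdm5d had 0 bases in KO ND and 501 and 629 bases in KO LID, against 0 in WT ND and WT LID. Xist had 0 and 562 bases in KO ND and KO LID, against 694 and 645 in WT ND and WT LID. Genotype and sex composition of the libraries therefore cannot be told apart, which touches the X-linked Bcor most directly.

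Sequences are shown for the PAX8 peaks that reached the 1 kb around the TSSs of Bcor and Tet3 and for the PAX8 member of the shared peak pair nearest a TSS at Jarid2 and at Cbx7. Each is read from the plus strand of mm10, and the number in its name is the distance in bp of the peak midpoint from the nearest TSS of the gene, negative upstream. Capitals mark matches, on either strand, to the cores CACTNNAG (bound by NKX2.1), GTCANGC (a PAX core) and TGGGGGGT (a GLIS core). No 2 matches overlapped.
Bcor PAX8 -126: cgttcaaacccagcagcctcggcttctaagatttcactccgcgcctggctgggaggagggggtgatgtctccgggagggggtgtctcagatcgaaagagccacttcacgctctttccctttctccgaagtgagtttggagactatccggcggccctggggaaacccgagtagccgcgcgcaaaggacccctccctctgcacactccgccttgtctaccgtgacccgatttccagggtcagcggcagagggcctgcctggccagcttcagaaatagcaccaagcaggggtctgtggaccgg
Tet3 PAX8 1: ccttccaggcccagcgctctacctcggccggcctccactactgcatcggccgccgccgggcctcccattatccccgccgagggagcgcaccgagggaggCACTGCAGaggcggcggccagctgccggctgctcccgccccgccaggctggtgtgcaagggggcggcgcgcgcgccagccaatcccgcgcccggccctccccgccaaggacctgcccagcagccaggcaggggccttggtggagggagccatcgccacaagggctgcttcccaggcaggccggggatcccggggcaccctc
Tet3 PAX8 -1063: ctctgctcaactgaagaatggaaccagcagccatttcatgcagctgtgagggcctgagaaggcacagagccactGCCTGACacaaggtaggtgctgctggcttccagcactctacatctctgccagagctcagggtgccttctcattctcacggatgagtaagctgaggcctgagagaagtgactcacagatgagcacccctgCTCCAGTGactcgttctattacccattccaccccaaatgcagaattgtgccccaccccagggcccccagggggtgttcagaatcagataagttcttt
Tet3 PAX8 -527: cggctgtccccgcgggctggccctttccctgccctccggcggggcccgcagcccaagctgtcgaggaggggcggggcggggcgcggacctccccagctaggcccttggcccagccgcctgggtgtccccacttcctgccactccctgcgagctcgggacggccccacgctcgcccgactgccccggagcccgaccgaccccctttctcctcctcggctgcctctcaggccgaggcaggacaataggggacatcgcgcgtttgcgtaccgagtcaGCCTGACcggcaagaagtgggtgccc
Jarid2 PAX8 9202: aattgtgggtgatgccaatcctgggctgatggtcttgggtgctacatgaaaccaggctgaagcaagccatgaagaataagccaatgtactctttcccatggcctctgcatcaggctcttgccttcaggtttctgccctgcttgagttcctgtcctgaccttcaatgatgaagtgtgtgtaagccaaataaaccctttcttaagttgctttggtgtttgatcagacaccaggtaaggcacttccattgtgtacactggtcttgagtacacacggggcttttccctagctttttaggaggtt
Cbx7 PAX8 -3140: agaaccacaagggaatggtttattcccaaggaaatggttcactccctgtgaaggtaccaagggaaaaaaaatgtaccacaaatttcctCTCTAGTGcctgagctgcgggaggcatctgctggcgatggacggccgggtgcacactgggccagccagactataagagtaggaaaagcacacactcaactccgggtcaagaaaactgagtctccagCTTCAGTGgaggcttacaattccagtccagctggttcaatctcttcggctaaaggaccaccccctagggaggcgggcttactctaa
The Bcor peak (chrX:12160332-12160631) covers both outer TSSs of the gene and held none of the 3 cores. The peak on the inner TSS of Tet3 (chr6:83441528-83441827) held 1 match to the NKX2.1 core, in CACTGCAG at base 100 of the peak, although no NKX2.1 peak overlapped it. The PAX core was matched as GCCTGAC in the other Tet3 peaks, at base 75 of chr6:83442592-83442891 and at base 275 of chr6:83456770-83457069. The shared Cbx7 peak (chr15:79935637-79935936) held 2 matches to the NKX2.1 core and the shared Jarid2 peak (chr13:44740324-44740623) none of the 3. Over all peaks of the 10 genes the PAX core was present in 12 of 82 PAX8 peaks (14.6%), beside 19.8% of all PAX8 peaks and 10.7% of 32851 RefSeq promoters of 300 bp (GRCm38). The NKX2.1 core was present in 11 of 60 NKX2.1 peaks (18.3%), beside 35.9% of all NKX2.1 peaks and 16.0% of promoters. The GLIS core was in 2 of 82 PAX8 peaks (2.4%) and 2 of 60 NKX2.1 peaks (3.3%), beside 0.9% of all peaks of either factor and 1.5% of promoters. A match is a description of letters and not of a bound site.

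All 10 genes had at least 1 PAX8 peak within the gene and 50 kb either side, as did 80.7% of protein-coding genes, and all 10 had at least 1 NKX2.1 peak, as did 79.1%. A shared pair, meaning a PAX8 and an NKX2.1 peak overlapping by at least 1 bp, was present at 8 of the 10, beside 64.8% of genes. Eed and Kdm6b were without one. The windows held 82 PAX8 peaks, 60 NKX2.1 peaks and 27 shared pairs in all. The pairs took 32.9% of the PAX8 peaks and 45.0% of the NKX2.1 peaks, beside 45.9% and 50.8% over the genome. In 26 of the 27 pairs the peaks overlapped by at least 150 bp, with a median of 40 bp between midpoints, and 1 pair 29.9 kb upstream of Tet3 overlapped by 2 bp only. The median was 5.5 PAX8 and 5 NKX2.1 peaks per gene, beside 4 and 3 over all genes, and windows were longer, at a median of 138.2 kb beside 116.7 kb. Per 100 kb of window the medians were 4.62 PAX8 and 3.51 NKX2.1 peaks, beside 2.8 and 2.51 over all genes. The PAX8 medians include Bcor and Tet3, which were chosen by PAX8 peaks and had the highest PAX8 densities of the 10 (7.6 and 7.73). They are therefore a description and not a result about the family. Neighbouring genes crowd some of these windows, and only 55 of the PAX8 peaks, 38 of the NKX2.1 peaks and 17 of the pairs had a TSS of 1 of the 10 as the nearest protein-coding TSS.

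**Figure D1:**
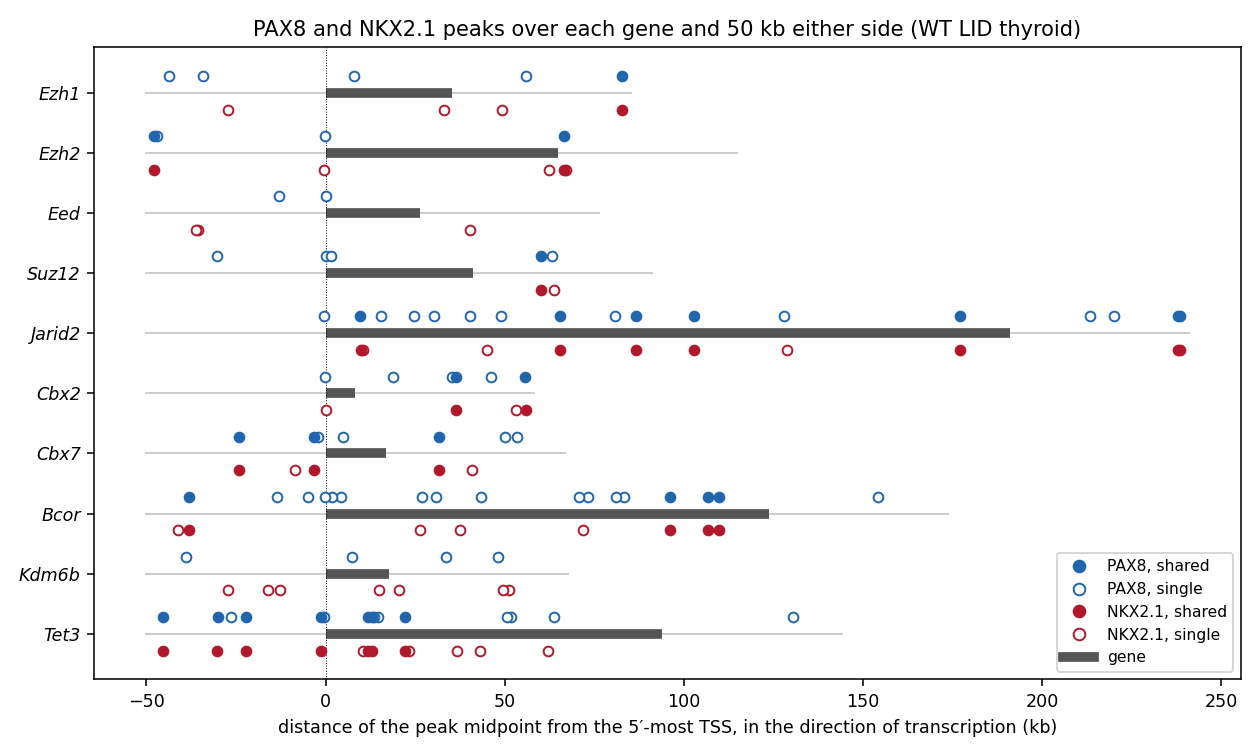
Midpoints of PAX8 (blue, above) and NKX2.1 (red, below) peaks relative to the 5′-most TSS of each gene in kb, with the gene as a grey bar and the 50 kb either side as a thin line. Filled points are peaks shared by both factors and open points are single peaks. Jarid2, Bcor and Tet3 carry 17, 17 and 15 PAX8 peaks, and Eed and Kdm6b have no filled points.

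The catalytic subunits of PRC2 had 4 or 5 peaks of each factor, beside medians of 4 PAX8 and 3 NKX2.1 peaks over all genes. Ezh2 (chr6:47530274-47595030) had 4 PAX8 peaks, 5 NKX2.1 peaks and 2 shared pairs. Its PAX8 peak 66 bp upstream of the TSS and its NKX2.1 peak 427 bp upstream did not overlap, and both pairs lay far out, 47.8 kb upstream and 66.6 kb downstream of the TSS. Ezh1 (chr11:101191115-101226463) had 5 PAX8 peaks, 4 NKX2.1 peaks and 1 pair, in a window shared with 7 other protein-coding genes. Only 1 of these peaks, a PAX8 peak in intron 2, had the Ezh1 TSS as its nearest, and no peak of either factor lay within 5 kb of that TSS. At Ezh1 the counts thus describe the neighbourhood rather than the promoter.

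The other PRC2 members differed widely. Eed (chr7:89954654-89980976) had 2 PAX8 and 3 NKX2.1 peaks, none shared. A PAX8 peak lay in exon 1, 164 bp after the TSS, and no NKX2.1 peak lay in the gene. Suz12 (chr11:79993106-80034123) had 5 PAX8 peaks, 2 NKX2.1 peaks and 1 pair, with PAX8 in exon 1 (67 bp after the TSS) and intron 1 (1457 bp) and both NKX2.1 peaks beyond the 3′ end, nearest to Crlf3. Jarid2 (chr13:44730774-44921643), whose product is an accessory subunit that recruits PRC2 to chromatin, had 17 PAX8 peaks, 10 NKX2.1 peaks and 7 pairs. Of these, 12 PAX8 peaks, 8 NKX2.1 peaks and 5 pairs lay in the gene body, mainly in intron 2, and the gene is 190.87 kb long. Its 17 PAX8 peaks were more than those of 98.2% of genes, and their density of 5.84 per 100 kb was above that of 82.3%.

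For canonical PRC1, Cbx2 (chr11:119023021-119031275) had 6 PAX8 peaks, 4 NKX2.1 peaks and 2 pairs, but only 1 peak of each factor had its TSS as the nearest. These were a PAX8 peak 299 bp upstream and an NKX2.1 peak 252 bp downstream of the TSS, in exon 2, and they did not overlap. The rest lay 18.9 to 55.8 kb downstream, nearer to the TSSs of other genes. Cbx7 (chr15:79915807-79932646) had 7 PAX8 peaks, 5 NKX2.1 peaks and 3 pairs. It had no peak of either factor within 1 kb of its TSS, and its nearest pair was the one printed above, at 3140 bp upstream by the PAX8 midpoint and 3169 bp by the NKX2.1 midpoint.

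Bcor (chrX:12036737-12160355) encodes a corepressor that is part of a variant PRC1. It had 17 PAX8 peaks, 8 NKX2.1 peaks and 4 pairs, so that 13 PAX8 and 4 NKX2.1 peaks were single. No other protein-coding gene lies in its window, and all 17 and all 8 had a Bcor TSS as the nearest. The PAX8 density of 7.6 per 100 kb was above that of 92.1% of genes, and the NKX2.1 density of 3.58 above that of 64.2%. Within 5 kb of a Bcor TSS there were 6 PAX8 peaks, 4 around the outer TSSs (4890 and 126 bp upstream, 1878 and 4393 bp downstream) and 2 after the inner TSS (1257 and 3526 bp), and no NKX2.1 peak. Of the 5 genes with at least 6 PAX8 peaks in such windows Bcor alone had no NKX2.1 peak there, a property of the values by which it was chosen. The 4 pairs were at 38.2 kb upstream of the outer TSSs and at 16.2, 27.1 and 29.9 kb after the inner TSS.

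Tet3 (chr6:83362373-83456392) had 15 PAX8 peaks, 12 NKX2.1 peaks and 7 pairs. Its densities were 7.73 PAX8 and 6.18 NKX2.1 peaks per 100 kb, above those of 92.8% and 88.7% of genes. Within 5 kb of its TSSs lay 6 PAX8 peaks, as at Bcor, but also 4 NKX2.1 peaks. The PAX8 peaks nearest the TSSs (1 and 527 bp away) were single, and a little further upstream came 3 shared pairs with PAX8 midpoints at 1206 bp upstream of the outer TSS and 1845 and 2876 bp upstream of the inner TSS. The remaining pairs were 7395 bp after the inner TSS and 22.3, 29.9 and 45.3 kb upstream of the outer TSS, the last 2 pairs nearest to Dguok. Kdm6b (chr11:69398508-69416194) had 4 PAX8 and 7 NKX2.1 peaks, none shared and none within 5 kb of its TSS. Of the NKX2.1 peaks, 3 lay 12.8 to 27.3 kb upstream with no other protein-coding TSS nearer.

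**Figure D2:**
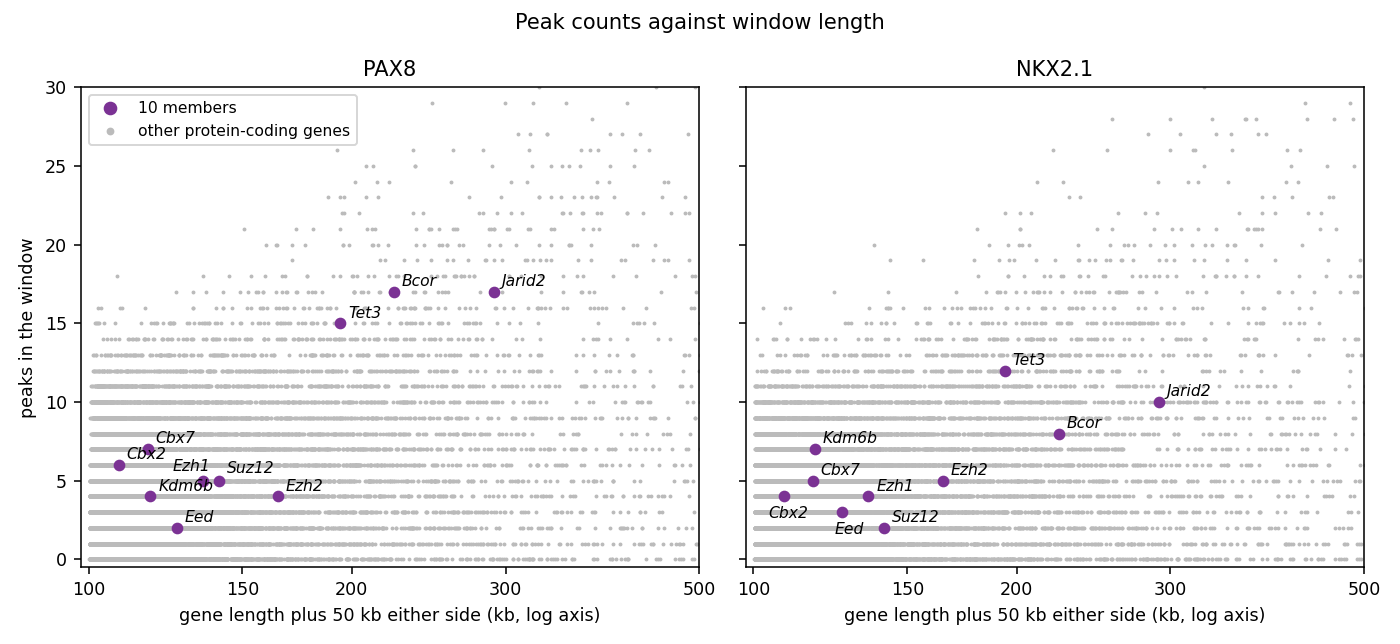
PAX8 (left) and NKX2.1 (right) peaks in the gene and 50 kb either side, against the length of that window in kb on a log axis. Purple points are the 10 genes and grey points the other protein-coding genes, of which 345 fall beyond 500 kb or 30 peaks and are not drawn. Tet3, with 15 PAX8 and 12 NKX2.1 peaks, and Bcor, with 17 PAX8 peaks, lie high for their window length, while Eed and Suz12 have 3 and 2 NKX2.1 peaks.

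Close to the TSS PAX8 peaks were the more frequent. A PAX8 peak reached the 1 kb around a TSS at 7 of the 10 genes (Ezh2, Eed, Suz12, Jarid2, Cbx2, Bcor and Tet3), beside 29.3% of genes, and an NKX2.1 peak at 2 (Ezh2 and Cbx2), beside 21.1%. Without Bcor and Tet3, which were chosen by PAX8 peaks near their TSSs, the PAX8 count was 5 of 8. Among the 9 members with H3K4me3 in all 4 libraries, Bcor and Tet3 included, the PAX8 and NKX2.1 counts were 7 and 2, beside 45.4% and 31.6% of such genes. None of the 9 PAX8 peaks within 1 kb of a member TSS was shared, beside 26.2% of all PAX8 peaks so close to a protein-coding TSS, and 27 of the other 73 were (37.0%). Of those 9 peaks, 1 was at Bcor and 3 were at Tet3, so they rest in part on the peaks used for the choice. The peaks of these windows lie by definition within 50 kb of a gene, and many PAX8 peaks among them were in H3K4me3 regions, with 26 of 82 in KO ND regions (31.7%), 29 in WT ND (35.4%), 21 in KO LID (25.6%) and 25 in WT LID (30.5%). Over all PAX8 peaks the shares were 13.3%, 13.8%, 12.3% and 13.4%. For NKX2.1 the counts were 10, 9, 7 and 10 of 60, or 16.7%, 15.0%, 11.7% and 16.7%, beside 10.2%, 10.7%, 9.19% and 10.3% of all NKX2.1 peaks.

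The genes carried H3K4me3 within 1 kb of a TSS almost throughout. It was present at 10 of 10 genes in KO ND and at 10 of 10 in WT ND, beside 62.5% and 62.2% of genes, and at 9 in KO LID and 9 in WT LID, beside 60.1% and 63.0%. In all 4 libraries together it was present at 9, beside 56.6% of genes. The exception was Cbx7 on the LID. Values below are the bases inside a called H3K4me3 region among the 2001 bases centred on a TSS, in the order KO ND, WT ND, KO LID and WT LID.

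The PRC2 genes were broadly covered in every library. Jarid2 was covered over all 2001 bases at both TSSs in all 4 libraries, by a single region of 5035 to 5375 bp. Ezh2 had 1966, 2001, 1894 and 2001 bases, and Eed 1881, 2001, 2001 and 2001. Suz12 had 1951, 1960, 1683 and 1824 bases, so both LID libraries were lower than both ND libraries (LID minus ND of -268 bases in KO and -136 in WT). Ezh1 had the shortest coverage of this group, at 1201, 1294, 1305 and 1327 bases. Cbx2 stood at 1698, 1609, 1515 and 1641 bases. These values lie close together, and how much a repeat library would move them is not known.

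Bcor had a wide region at its inner TSS (1894, 2001, 2001 and 2001 bases, in regions of 4731 to 5393 bp) and a shorter one at the outermost TSS (1243, 1522, 1446 and 1297 bases). At the outer TSSs the KO library was lower than the WT library on the ND and higher on the LID. Tet3 was fully covered at its outer TSS in all libraries. At the inner TSS it had 1963 and 2001 bases on the ND and 1030 (KO) and 1729 (WT) on the LID, a difference of -699 bases between KO LID and WT LID. The KO LID list is the shortest H3K4me3 list. Over the genes marked in either LID library the median difference of KO minus WT was -102 bases, taking the best-covered TSS of each gene. By that measure Tet3 had 2001 bases in both LID libraries, so the -699 bases at its inner TSS are not on the same measure.

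Cbx7 and Kdm6b differed most between diets. At the single Cbx7 TSS, H3K4me3 covered 0 bases in KO LID and 0 in WT LID, against 1286 in KO ND and 1460 in WT ND. Both LID libraries were thus without a region where both ND libraries had one, a pattern met at 0.481% of genes. The LID minus ND difference was -1286 bases in KO and -1460 in WT, and 1.2% and 0.14% of genes marked in either library were as low or lower. A region between 4219 and 5151 bp after the TSS, where a single PAX8 peak lies 4912 bp after the TSS, was called in WT LID (891 bp), KO ND (761 bp) and WT ND (629 bp) and not in KO LID.

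At Kdm6b, H3K4me3 covered 292 bases in KO LID and 1029 in WT LID, against 2001 in KO ND and 2001 in WT ND. All 4 libraries had a region that began about 4.5 kb upstream. On the ND it ran past the TSS without a break, to 1957 bp after it in KO and 1560 bp in WT. On the LID it stopped 709 bp before the TSS in KO and 1228 bp before it in WT, and WT LID had a separate region from 107 bp before to 921 bp after the TSS. The LID minus ND difference was -1709 bases in KO and -972 in WT, as low or lower at 0.34% and 0.68% of genes. Over all marked genes the median LID minus ND difference was -60 bases in KO and 1 in WT. A second region starting about 4 kb into the gene was called in all 4 libraries.

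**Figure D3:**
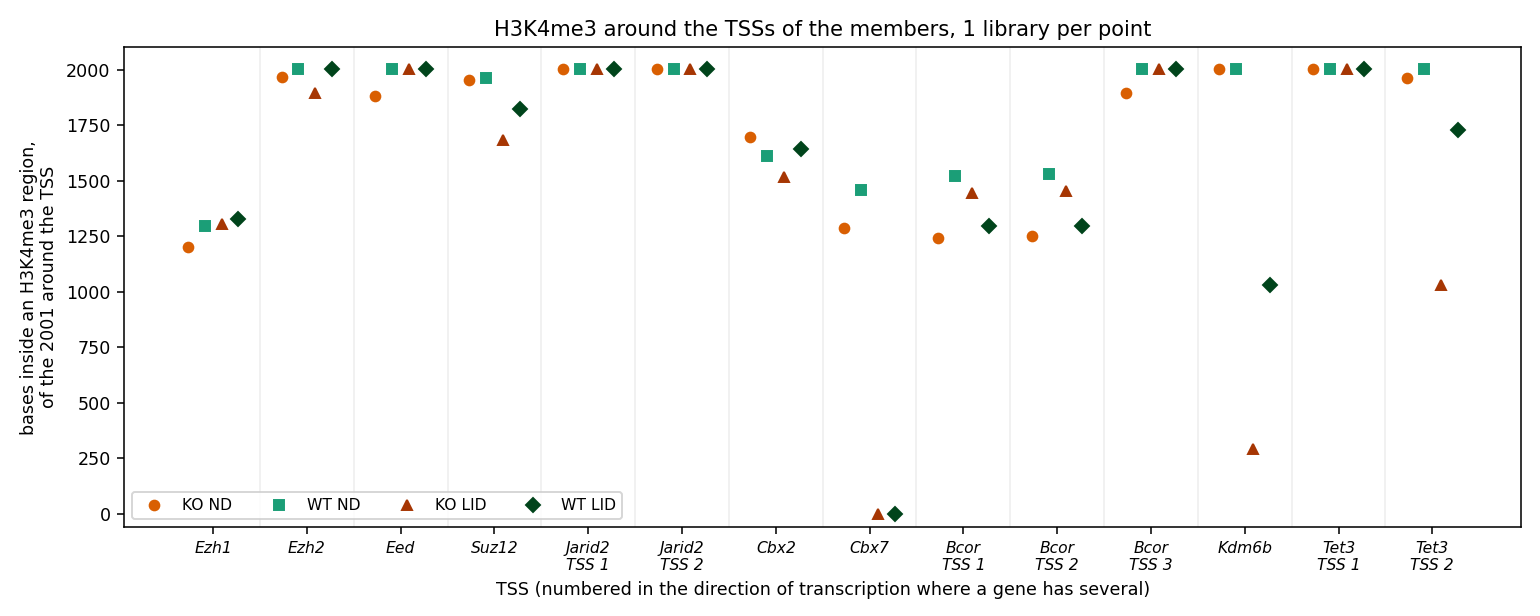
Bases inside a called H3K4me3 region among the 2001 bases around each TSS, for KO ND, WT ND, KO LID and WT LID from left to right within each TSS. Each point is 1 library. Cbx7 is at 0 in both LID libraries against 1286 (KO) and 1460 (WT) on the ND, and Kdm6b is at 292 (KO) and 1029 (WT) on the LID against 2001 in both ND libraries.

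H3K27me3, the product of the complex that several of these genes encode, was present at the TSSs of few of them, as of few genes in general. It lay within 1 kb of a TSS at 1 of the 10 in KO ND (Cbx2), beside 8.68% of genes, and at 1 in WT ND (Bcor), beside 6.44%. It did so at 2 in KO LID (Cbx2 and Bcor), beside 17.5%, and at 0 in WT LID, beside 6.5%. The windows of Ezh2, Eed and Jarid2 held no H3K27me3 region in any library over the gene and 50 kb either side. Those of Suz12, Cbx7, Kdm6b and Tet3 held 1, 1, 2 and 1 regions in KO LID, the longest list, and none elsewhere. The share of all genes with a region in so wide a window was not counted, so whether these numbers are unusual is unknown. Ezh1 had H3K27me3 in all 4 libraries, of which the nearest was 15 kb from its TSS, in KO LID, with the widest region of each library close to or over Wnk4.

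Cbx2 was marked in both KO libraries and in neither WT library, as were 1.76% of genes. Within 1 kb of its TSS 897 bases were covered in KO ND, against 0 in WT ND, and 2001 in KO LID, against 0 in WT LID. The KO ND region was 1254 bp wide and ended 104 bp before the TSS, so that it held the PAX8 peak 299 bp upstream. The KO LID region was 7482 bp wide, ran to 1226 bp after the TSS and held that PAX8 peak and the NKX2.1 peak at 252 bp. These are overlaps of position only, since the PAX8 and NKX2.1 libraries are labelled WT on the LID and neither factor was mapped in KO. H3K4me3 was called over the same TSS in all libraries. Further downstream a region reached the 1 kb around the Cbx8 TSS in every library, with a width of 15410 bp in KO ND, 15583 bp in WT ND, 26312 bp in KO LID and 15734 bp in WT LID. The KO LID region, which started 9.88 kb downstream of the Cbx2 TSS, lay over the Cbx8 gene, whereas the others started about 18 kb downstream and lay wholly upstream of Cbx8. KO ND, WT ND and WT LID also had a separate region of 4164, 3536 and 3525 bp beyond the 3′ end of Cbx8. The KO LID region spanned that place too. When each list was reduced to its 2631 widest regions, Cbx2 kept the mark in KO LID and not in KO ND. Over genes marked in either library the median difference of KO minus WT was 301 bases on the ND and 1078 on the LID, and 32.1% and 20.96% of those genes had a difference as large as that of Cbx2 or larger.

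Bcor had H3K27me3 only at its inner TSS. There 0 bases were covered in KO ND, against 468 in WT ND, and 2001 in KO LID, against 0 in WT LID. That pattern, WT ND and KO LID without the other libraries, was met at 0.738% of genes. The WT ND region was 1001 bp, the shortest width in these lists, and lay 533 to 1533 bp upstream. The KO LID region was 4649 bp wide and held the position of the PAX8 peak, from thyroid labelled WT LID, 1257 bp after the TSS. A WT LID region of 1300 bp ended 2198 bp upstream, outside the window. The direction between genotypes was opposite on the 2 diets, and with 1 library each this was not tested. The WT ND region was lost with a TSS window of 500 bp either side, and neither the WT ND nor the KO LID region at this TSS was among the 2631 widest of its list. H3K27me3 lay at 4.55%, 3.1%, 14.5% and 2.66% of X-linked genes in KO ND, WT ND, KO LID and WT LID, beside 8.9%, 6.62%, 17.7% and 6.7% of autosomal genes.

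**Figure D4:**
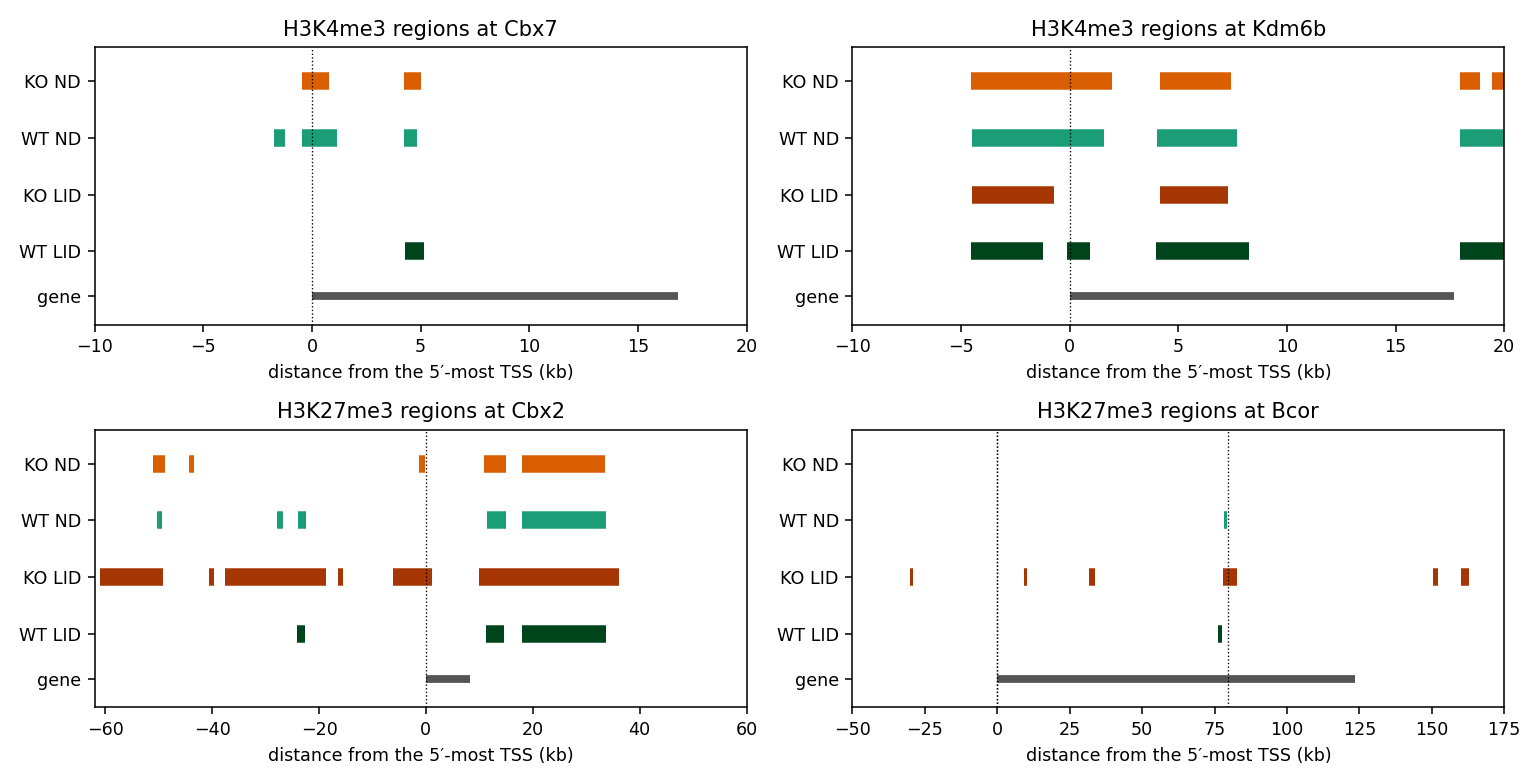
Called regions in each library (KO ND, WT ND, KO LID, WT LID from top to bottom) against distance from the 5′-most TSS in kb, with the gene as a grey bar and TSSs as dotted lines. The upper panels show H3K4me3 close to the TSSs of Cbx7 and Kdm6b, where both LID libraries lack the region across the TSS or have it broken. The lower panels show H3K27me3 over the windows of Cbx2 and Bcor, where the KO LID list holds 6 regions each.

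Among 71 genes of the wider Polycomb, PR-DUB, Tet, DNA methyltransferase and H3K4 or H3K27 enzyme families, the 10 included, 67 had a PAX8 peak, 67 an NKX2.1 peak and 58 a shared pair in the window, beside 80.7%, 79.1% and 64.8% of all genes. PAX8 lay within 1 kb of a TSS at 35 of the 71 and NKX2.1 at 23, beside 29.3% and 21.1% of all genes. Among genes with H3K4me3 in all 4 libraries, which nearly all of the 71 resemble in this mark, those shares were 45.4% and 31.6%. H3K4me3 was present at 70, 69, 68 and 68 of the 71 in KO ND, WT ND, KO LID and WT LID, beside 62.5%, 62.2%, 60.1% and 63.0%. H3K27me3 was present at 4, 4, 11 and 4, beside 8.68%, 6.44%, 17.5% and 6.5%. Of the 61 genes other than the 10, 57 had a PAX8 peak, 57 an NKX2.1 peak and 50 a shared pair, and PAX8 lay within 1 kb of a TSS at 28 and NKX2.1 at 21. H3K4me3 was present at 60, 59, 59 and 59 of these 61 and H3K27me3 at 3, 3, 9 and 4. The DNA methyltransferase gene Dnmt3a had 25 PAX8 and 13 NKX2.1 peaks, or 12.05 and 6.27 per 100 kb of window. The variant PRC1 gene Auts2 had 25 and 17 in a window of 1206 kb, or 2.07 and 1.41 per 100 kb, below the medians of 2.8 and 2.51 over all genes. The PR-DUB scaffold gene Asxl1 had 17 PAX8 and 15 NKX2.1 peaks with 12 pairs in its window. Its TSS was the nearest for only 7 of these PAX8 peaks, 6 NKX2.1 peaks and 6 pairs. At Bcor all 17 PAX8 peaks and all 4 pairs had a Bcor TSS as the nearest, so the 2 windows are not alike. Rybp, of variant PRC1, had 14 and 16, all nearest to its own TSS. Epop, a PRC2 accessory gene, had 15 and 13, of which 6 and 6 were nearest to its TSS. Epop was the only one of the 71 with H3K27me3 over the full window in 3 libraries (KO ND, WT ND and KO LID), with 1265 bases in WT LID, while also carrying 1460 to 1663 bases of H3K4me3. Cbx8 had 856, 850, 2001 and 861 bases of H3K27me3. Asxl3 and Auts2 had 555 and 88 bases in WT LID, 1362 and 2001 in KO LID, and 0 in both ND libraries. The other listed genes of the H3K27 demethylase family, whatever the activity of their products, were Kdm6a on the X and Uty on the Y chromosome. They had no peak of either factor in their windows, against 4 PAX8 and 7 NKX2.1 peaks at Kdm6b. Ezhip was the only one of the 71 with no H3K4me3 at a TSS in any library.

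The genes most like Bcor in their numbers of single PAX8, single NKX2.1 and shared peaks within 5 kb of a TSS, by Euclidean distance over the 2 factor libraries, were Prkag2 (5 single PAX8 peaks and 1 shared, at a distance of 1.41) and then Fam189a2, Pmepa1, Fmn1 and Zbtb7c, each with 4 single PAX8 peaks and none else. Those most like Tet3, which had 3 single PAX8, 1 single NKX2.1 and 3 shared, were Plec with the same counts over 11 TSSs, then Bmpr1b and Zbtb32 at a distance of 1, and Retreg1 and Spns2 at 1.41. Genes with several TSSs have more sequence within 5 kb of one, and Bcor has 3 TSSs and Tet3 has 2.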

How the data were processed

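Peak positions for PAX8, NKX2.1 and the histone marks in mouse thyroid were taken from the deposited lists, in which the authors give chromosome, start and end of each peak and no score, signal or count. Per the study's methods, single-end reads were trimmed with cutadapt 1.12, uniquely mapped to mm10 with Bowtie 1.2, cleared of duplicates with Picard 1.110 and submitted to HOMER 4.10.3, with factor peaks called against input and set to 300 bp, and histone marks called as regions with wider settings for H3K27me3. bedtools 2.24.0 is also named in the submitters' processing notes. Use of input in calling the histone marks was not given in the sources used here. Depth decides how many regions are called, so list lengths are given beside the results.

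Starts were converted to count from 1. Genes, exons and TSSs were those of curated RefSeq transcripts on GRCm38.p6, the assembly of mm10 (26242 TSSs of 21000 protein-coding genes). Overlaps of at least 1 bp were counted with Python 3.11.15, pandas 2.3.3 and NumPy 2.4.6, figures were drawn with Matplotlib 3.10.9, and the overlap code was checked on simulated intervals. A peak counted for every gene whose window it met. For differences of covered bases over all genes, a gene with several TSSs took the value of its best-covered TSS in each library. Exon or intron was assigned by the peak midpoint. Motif shares were counted over the 51568 PAX8 and 46633 NKX2.1 peaks on assembled chromosomes. With 1 library a group no test was made, and members are set beside all protein-coding genes.

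The 10 genes, the wider list of 71 and the marker list were chosen with earlier results of these data known. Of the wider list, the text draws on up to 2 genes per subgroup with most peaks, those with H3K27me3 in a WT library and those without H3K4me3. Of the genes so drawn, 1 is not reported here. Alternatives changed the window, the overlap, the TSSs used, the coverage required and the number of regions. Of the 21 samples, the 8 inputs have no list, and the 3 rat lists and the 2 merged histone lists were not used here.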

Additional observations from a re-analysis of the deposited data

Results flagged for a closer look

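The difference between genotypes had opposite signs on the 2 diets at 3 places. At the inner TSS of Bcor (position 12080553 of chromosome X) the H3K27me3 cover within 1 kb differed by -468 bases for KO minus WT on the ND and by 2001 bases on the LID. For H3K4me3 the differences were -279 bases on the ND and 158 on the LID at the Bcor TSS at 12160346, and -279 and 149 at the adjoining TSS at 12160355. At the Cbx2 TSS (position 119023021 of chromosome 11) the H3K4me3 difference was 89 bases on the ND and -126 on the LID. Each sign rests on 1 library per group, and the difference between diets was not tested.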

How the results depend on the processing

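No paired analysis was possible because each group has 1 library and no comparison gives a test. A stricter peak threshold could not be tried, since the lists hold no score. Of 94 alternative values for 42 counts, 67 stayed within 1.5 times of the value given. A PAX8 peak was found at 8 to 10 genes under the alternatives (42.0% to 64.5% of all genes) and H3K4me3 at 8 to 10 (49.1% to 63.6%). Within 5 kb of a TSS 4 genes had an NKX2.1 peak (35.4% of all genes). A shared pair was found at 3 genes in the gene body (27.9%), at 5 in the gene body and 10 kb either side (40.8%), at 2 within 5 kb of a TSS (16.9%) and at 5 by the nearest TSS (38.5%). H3K27me3 was found in KO ND at 0 genes with equal numbers of widest regions (7.55%) or with at least 0.5 of the window covered (7.4%). It was found in WT ND at 0 with those settings (6.05% and 5.03%), with a 500 bp window (5.95%) or with the 5′-most TSS only (6.06%). In KO LID it was found at 1 gene, Cbx2, with equal numbers of widest regions (7.5%), and at 1 with the 5′-most TSS only (16.9%). Counting a peak only by its nearest TSS moved 14 of 30 counts for single genes by more than 1.5 times, at Ezh1, Suz12, Jarid2, Cbx2, Cbx7 and Kdm6b. Without the KO LID library, an alternative chosen after seeing the data, H3K27me3 was still met at 2 genes over the remaining libraries (Cbx2 and Bcor). Peak lists without read counts cannot separate a weaker signal from an absent one.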
